A study of Mus musculus with 6 samples.

Results

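The genes described here are the interferon-response and MHC genes of mouse embryonic fibroblasts (MEFs). They were chosen by name alone, as the minus-strand genes called Ifi, Ifit, Ifitm, Ifnar, Ifngr, Irf, Oas, Gbp, Stat, Mx, Isg, Rsad2, Usp18, Irgm, Iigp1, Parp9, Parp12, Parp14, Bst2, H2, Tap, Tapbp, B2m or Trim. This gave 86 genes out of 19269 on the minus strand and 38483 in all. Another 100 genes with such names lie on the plus strand, where every gene was listed at 0 in every culture, among them all 4 interferon receptor genes, 13 transcription factor genes and 8 MHC class II genes. Nothing can be said about these genes from the values used here.

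RNA-seq was done on 3 WT and 3 Nipbl+/- cultures of CD1 MEFs at passage 3, grown in DMEM with serum. The Nipbl+/- cells carry 1 knockout allele of Nipbl, which encodes the cohesin loader mutated in most people with Cornelia de Lange syndrome, and the WT cells came from littermates without it. The embryos were taken in mid-gestation from a single pregnant mouse, limbs, brain and internal organs were removed, and no treatment or infection was applied. CD1 is an outbred stock, and minced embryos hold more cell types than fibroblasts. Whether each culture came from its own embryo is not stated, so the p-values measure only the spread between these cultures.

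Interferons are secreted when a cell senses viral or misplaced nucleic acid. They act through receptors and the Stat and Irf transcription factors to switch on antiviral effectors, interferon-induced GTPases and the genes that load peptides onto MHC molecules. Fibroblasts use this pathway as most cells do, show MHC class I at a low basal level, and normally make no MHC class II. Trim proteins are a large family of mostly E3 ubiquitin ligases, only some of which take part in antiviral defence.

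Total counts lay between 20307454 and 25990783 per culture. Values below are CPM, counts scaled to a common TMM-normalized library size, and log2 fold changes are Nipbl+/- over WT. Tests are quasi-likelihood F tests in edgeR, with p-values adjusted by Benjamini-Hochberg over the 9061 genes tested. Nipbl itself was at 128, 145 and 135 CPM in WT and at 101, 101 and 100 CPM in Nipbl+/- cultures (log2 fold change -0.43, adjusted p = 0.0213). The fibroblast gene Fn1 held at least 1.44e+04 CPM in every culture. Xist counts exceeded Ddx3y counts in WT replicate 3 and Nipbl+/- replicates 1 and 2, and Ddx3y exceeded Xist in the other 3 cultures, so the groups were not balanced for sex.

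Several of these genes carry the interferon-stimulated response element (ISRE), the site read by Stat and Irf factors, close to their start. The 250 bases before the start of 4 effector genes that hold a match to it are shown as examples. They are RefSeq sequence of build GRCm38.p6, all on the minus strand and written 5′ to 3′, at chr4:156200819-156201068 for Isg15, chr8:71537473-71537722 for Bst2, chr5:120907526-120907775 for Oas1a and chr1:174031756-174032005 for Ifi205. Capitals mark matches to the ISRE core (GAAA, 2 bases of any kind, GAAA), which can overlap each other.
Isg15 promoter, 3 overlapping matches: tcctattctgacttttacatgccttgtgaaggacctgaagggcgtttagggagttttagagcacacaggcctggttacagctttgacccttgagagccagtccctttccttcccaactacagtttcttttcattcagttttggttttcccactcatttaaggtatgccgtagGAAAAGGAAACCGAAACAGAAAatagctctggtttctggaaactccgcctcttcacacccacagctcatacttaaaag
Bst2 promoter, 2 overlapping matches: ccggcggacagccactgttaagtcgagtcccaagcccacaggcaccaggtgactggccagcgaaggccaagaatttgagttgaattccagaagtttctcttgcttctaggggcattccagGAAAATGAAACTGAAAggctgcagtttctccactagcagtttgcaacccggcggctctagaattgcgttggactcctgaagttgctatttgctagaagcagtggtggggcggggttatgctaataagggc
Oas1a promoter, 2 overlapping matches: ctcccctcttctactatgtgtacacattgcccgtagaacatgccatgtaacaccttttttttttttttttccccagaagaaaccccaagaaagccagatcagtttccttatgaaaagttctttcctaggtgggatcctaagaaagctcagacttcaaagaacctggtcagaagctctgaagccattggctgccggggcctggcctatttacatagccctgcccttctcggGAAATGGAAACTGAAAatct
Ifi205 promoter, 1 match: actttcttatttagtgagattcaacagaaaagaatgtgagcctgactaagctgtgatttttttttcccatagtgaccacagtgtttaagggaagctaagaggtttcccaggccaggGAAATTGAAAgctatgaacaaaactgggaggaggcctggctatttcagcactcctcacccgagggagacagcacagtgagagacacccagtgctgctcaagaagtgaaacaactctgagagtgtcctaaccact
The Isg15 matches span bases -78 to -57 counted from the start, those of Bst2 -130 to -115, those of Oas1a -20 to -5 and that of Ifi205 -134 to -125.

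The motif was searched on both strands of windows from 250 bases before to 50 after each start. Of the member names, 60 had such a window, some of them more than 1, and 21 of these names (35%) held the ISRE core. Counted by window it was in 22 of 76 member windows (28.9%), against 3.44% of 32851 windows of all genes. Among the effectors it was found in 11 of 20, among the Trim genes in 7 of 26 and among the MHC class I genes in 2 of 8. The windows of Stat3, Stat5b and Irf7 held none. Nor did those of the effectors Ifi44, Ifi202b and Ifi30, and Ifi27l2b had no window. The GAS core TTCNNNGAA, the site of Stat dimers, was in 9 of 76 member windows (11.8%) and in 8.30% of all windows. A match is a run of letters in a short window and does not show that a factor binds there.

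Among the 86 genes, 59 had enough counts to be tested and 27 did not. Of the untested genes, 8 were at 0 in all cultures (Trim30b under 2 identifiers, Trim30c, Trim42, Trim60, Trim61, Trim75 and H2-Pb), and none of the others exceeded 17 counts in any culture. Mx1, which encodes an antiviral GTPase and is strongly induced by interferon, had 4 to 17 counts. Oas2 had 1 to 8 counts and Ifi44l 0 to 4. H2-Aa, a class II chain of antigen-presenting cells and the class II gene on this strand, had 1 count in each of 2 Nipbl+/- cultures and 0 elsewhere. A count of 0 allows up to 3 counts, or 0.115 to 0.148 CPM depending on the culture, and this covers counting error only.

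Of the 59 tested genes, 0 were higher in Nipbl+/- cultures at an adjusted p under 0.05, where 1.04% of all tested genes were, and 1 was lower, Ifi27l2b, where 0.916% of all tested genes were. At an unadjusted p under 0.05, 7 were higher (11.9%, against 8.98% of all tested genes) and 5 were lower (8.47%, against 7.95%). DESeq2 called 0 higher and 1 lower, where it called 2.62% and 2.34% of all genes. The exact test of edgeR called 2 higher, H2-M9 and Ifi202b, and 1 lower, where it called 2.42% and 2.35%. The fold change was above 0 for 30 members and below 0 for 29, and it was above 0 for 48.4% of all genes. Its median over the members was 0.0003, against -0.0057 over all genes tested. By these counts the genes as a group were spread around no difference, as the transcriptome was.

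**Figure D1:**
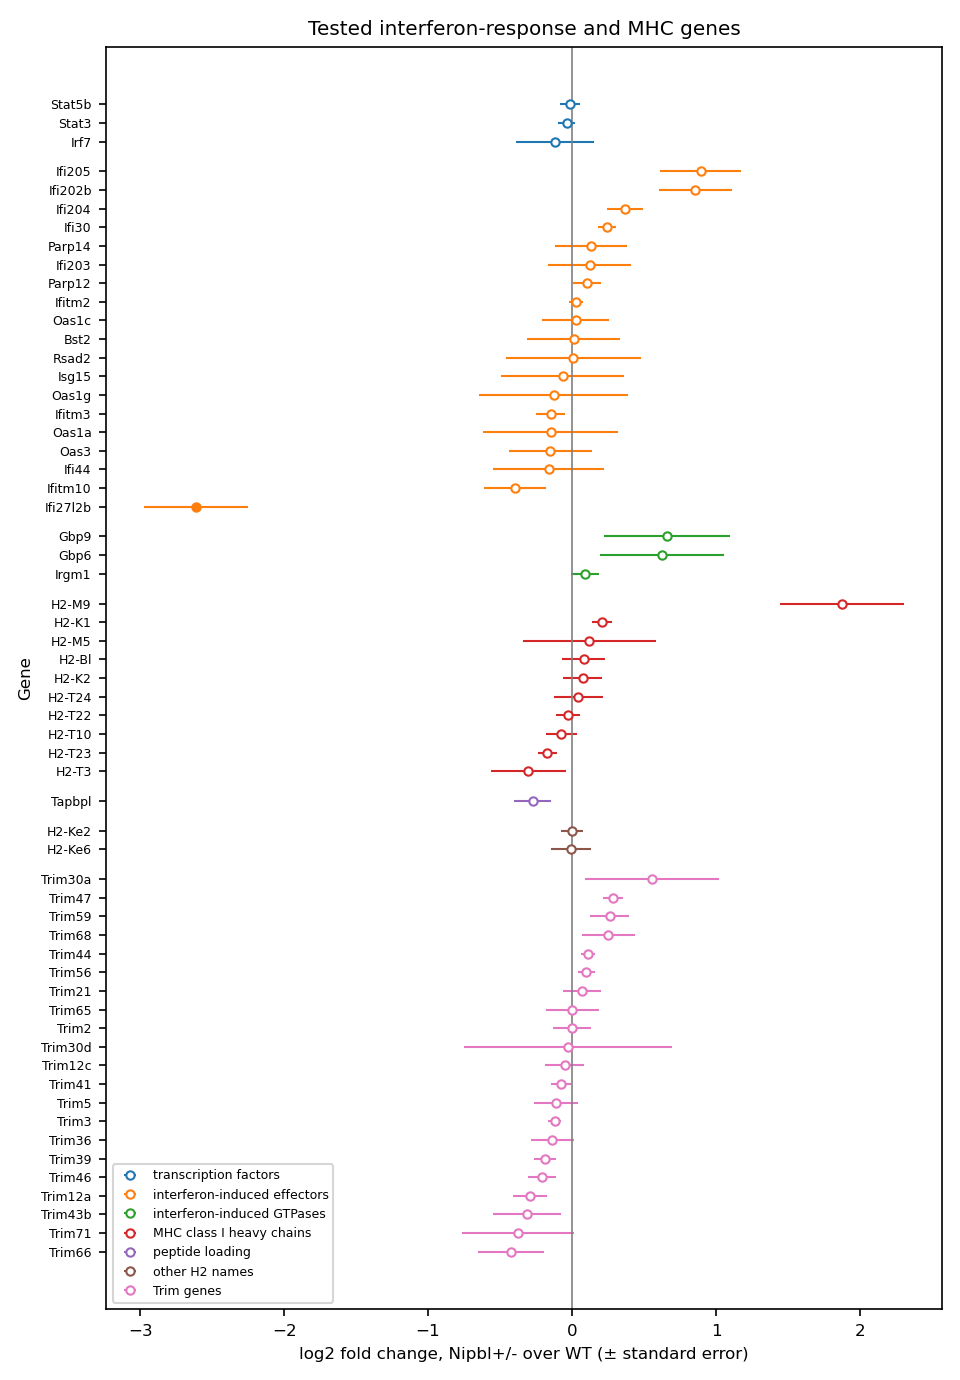
Log2 fold change of Nipbl+/- over WT (x axis, with standard error) for the 59 tested genes, grouped and coloured by role, with a filled point for the gene past the adjusted threshold. Ifi27l2b lies far to the left at -2.61 and H2-M9 to the right at 1.88, while most other genes lie near 0.

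The 3 transcription factor genes on this strand differed little. Stat3, which carries cytokine signals to the nucleus, was the most abundant per length of the 3 at 35.3 RPKM over all cultures, and its log2 fold change was -0.04 (SE 0.06). Stat5b, a transducer of growth hormone and cytokine signals, was at 7.17 RPKM with a log2 fold change of -0.01. Irf7, the factor that amplifies interferon production, was low at 0.958 RPKM. Irf7 was at 2.18, 2.71 and 4.45 CPM in WT and at 2.80, 3.25 and 2.53 CPM in Nipbl+/- cultures (log2 fold change -0.12, SE 0.27, edgeR adjusted p = 0.872). The groups overlapped, and WT replicate 3 was the highest culture for all 3 genes. Reads of the plus-strand neighbours that overlap Stat3 and Irf7 cannot be told apart from theirs, since the library kit is not stated to keep the strand. Such a neighbour overlaps 16 tested members. Another minus-strand gene overlaps 10 tested members, H2-Ke6, H2-T10 and Trim47 among them.

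The effectors held both the most abundant members and the member past the adjusted threshold. Ifitm2 and Ifitm3, membrane proteins that block the fusion of enveloped viruses, stood at 201 and 143 RPKM, against a median of 3.06 RPKM over the 59 tested members. Ifitm2 was even across the cultures, at 126, 132 and 129 CPM in WT and 128, 134 and 132 CPM in Nipbl+/- cultures. Ifitm3 was at 93.3, 98.4 and 124 CPM in WT and at 94.7, 91.8 and 98.4 CPM in Nipbl+/- cultures, with WT replicate 3 above the rest (log2 fold change -0.15, edgeR adjusted p = 0.507).

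Ifi27l2b encodes a member of a family of small hydrophobic proteins induced by interferon and lies at chr12:103450898-103457223 (mm10). It had 40, 75 and 45 counts in WT and 6, 10 and 11 counts in Nipbl+/- cultures, which is 1.81, 3.34 and 2.09 CPM against 0.271, 0.382 and 0.525 CPM. Every Nipbl+/- culture was far below every WT culture. The log2 fold change was -2.61 (SE 0.36, edgeR adjusted p = 0.0213). An exact two-sided permutation test of the CPM gave p = 0.1, the smallest that 3 against 3 cultures allow. With any 1 culture dropped the log2 fold change stayed between -2.85 and -2.31, and the adjusted p passed 0.05 in 3 of 6 fits (adjusted p = 0.0214 to 0.0876 by edgeR), failing without WT replicate 1, Nipbl+/- replicate 1 or Nipbl+/- replicate 2. The related gene Ifi27l2a lies beside it and had 3 to 14 counts, and how reads were divided between such copies is not known.

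Genes of the Ifi200 family, which encode nucleic acid binding proteins of the innate response and lie together on chromosome 1, gave the largest positive fold changes among the effectors. Ifi202b was at 20.4, 18.4 and 31.7 CPM in WT and at 49.2, 49.7 and 28.6 CPM in Nipbl+/- cultures. Replicates 1 and 2 of the Nipbl+/- group were well above all WT cultures, but replicate 3 was below WT replicate 3, so the groups overlapped. The log2 fold change was 0.86 (SE 0.25, edgeR adjusted p = 0.131). The exact test of edgeR gave an adjusted p of 0.0296. With the ratio of Ddx3y to Xist as a covariate the log2 fold change was 0.58 and the edgeR adjusted p 0.0184, and over all 14 alternatives the adjusted p ran from 0.0184 to 0.357.

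Ifi205 was at 1.5, 2.18 and 2.37 CPM in WT and at 5.05, 3.59 and 2.58 CPM in Nipbl+/- cultures. Ifi204 was at 20.5, 18.4 and 25.8 CPM in WT and at 29.9, 27.7 and 26.0 CPM in Nipbl+/- cultures. For both genes the groups did not overlap, but the nearest cultures, WT replicate 3 and Nipbl+/- replicate 3, almost met. Within each group the cultures in which Xist exceeded Ddx3y were the higher ones for both genes and for Ifi202b. The log2 fold changes were 0.89 (SE 0.28, edgeR adjusted p = 0.16) for Ifi205 and 0.37 (SE 0.12, edgeR adjusted p = 0.177) for Ifi204. Ifi203, between them and overlapping the family gene Mndal, had a log2 fold change of 0.12 (SE 0.29). Mndal went the other way, at 2.59, 3.56 and 3.90 CPM in WT and at 2.84, 2.64 and 2.96 CPM in Nipbl+/- cultures (log2 fold change -0.25, SE 0.20). Mnda, a gene of the same cluster that the names above do not cover and that was picked after its values were seen, was at 7.58, 7.57 and 9.93 CPM in WT and at 14.5, 14.0 and 10.8 CPM in Nipbl+/- cultures (log2 fold change 0.65). Its adjusted p was 0.0819 by edgeR's quasi-likelihood test, 0.0116 by edgeR's exact test and 0.009 by DESeq2. Similar sequence within this family makes the division of reads among its genes uncertain.

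Ifi30, a lysosomal thiol reductase that unfolds antigens for presentation, was at 67.6, 74.9 and 69.4 CPM in WT and at 89.5, 79.2 and 82.0 CPM in Nipbl+/- cultures. The groups did not overlap, and the log2 fold change was 0.24 (SE 0.06, edgeR adjusted p = 0.0972). Ifi30 is abundant in cells of the macrophage line, whose markers mostly had fold changes above 0 as well. All 13 macrophage markers on the minus strand were tested and none was at 0. Of these, 12 had a fold change above 0, against 48.4% of all tested genes. At an unadjusted p under 0.05, 11 were higher, against 8.98% of all tested genes. The quasi-likelihood test called 0 of the markers (smallest edgeR adjusted p = 0.0559), where it called 1.04% of all tested genes higher. The exact test of edgeR called 6 (C1qa, C1qb, C1qc, Cx3cr1, Lyz2 and Ptprc, smallest adjusted p = 0.000606), against 2.42% of all tested genes. DESeq2 called 5, the same without Lyz2 (smallest adjusted p = 0.000287), against 2.62%. The other alternatives called from 0 to 5, with 0 under the Ddx3y to Xist covariate. With a culture left out the 1 call was C1qa, without Nipbl+/- replicate 3. The summed level of the 13 markers was 97, 76.1 and 81.6 CPM in WT and 137, 217 and 112 CPM in Nipbl+/- cultures, without overlap. Lyz2 alone gave 45.3, 33.4 and 33.9 CPM in WT and 65.5, 112 and 52.9 CPM in Nipbl+/- cultures. Singly, Aif1, Cd53, Cd68, Fcer1g, Fcgr1 and Fcgr3 overlapped between the groups. The part of these cells in the values of Ifi30 and the Ifi200 genes was not tested. T and NK cell markers summed to at most 0.225 CPM in any culture, with Cd3e at 0. B cell and dendritic markers summed to 102 to 148 CPM in WT and 93.2 to 104 CPM in Nipbl+/- cultures. Of the 3 tested, 1 had a fold change above 0, and Flt3 was at -0.34 (edgeR adjusted p = 0.255). The epithelial marker Krt8 (log2 fold change 1.48, edgeR adjusted p = 0.227) and the fibroblast marker Fap (0.64, edgeR adjusted p = 0.181) were higher without overlap. In bulk cultures more cells of a type and more RNA per cell cannot be told apart.

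**Figure D2:**
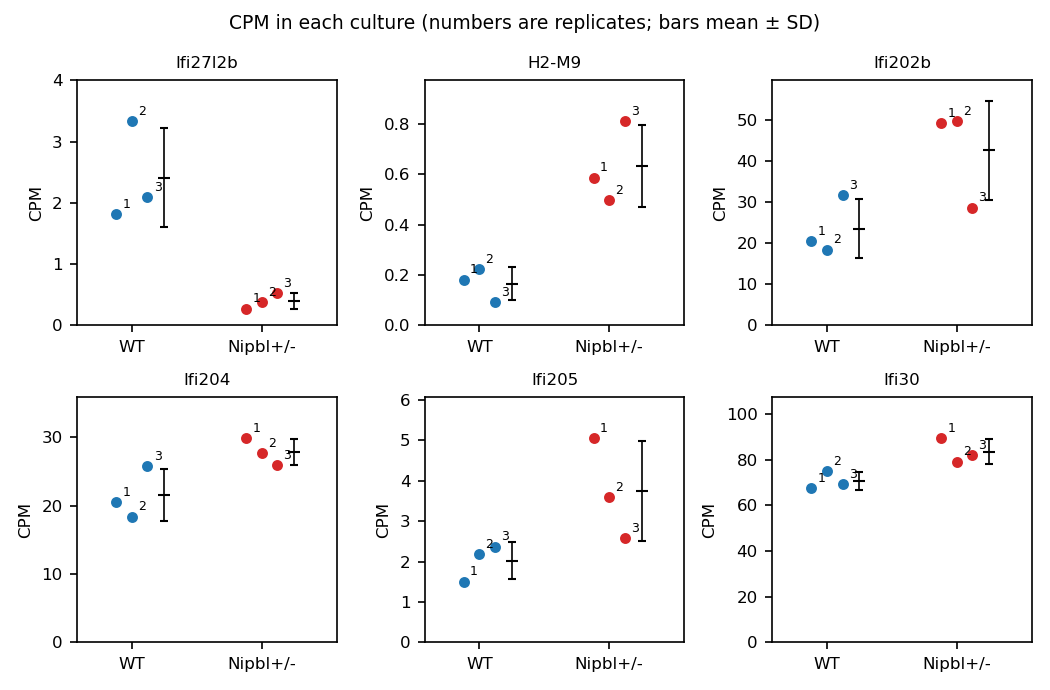
CPM (y axis, from 0) of 6 genes in each WT and Nipbl+/- culture, with replicate numbers beside the points and bars for the mean and SD of 3 cultures. Ifi27l2b was lower and H2-M9 higher in every Nipbl+/- culture, while for Ifi202b, Ifi204 and Ifi205 the cultures labelled replicate 3 of both groups lay close together. Xist exceeded Ddx3y in replicate 3 of WT but not in replicate 3 of Nipbl+/-.

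Some canonical effectors, picked after their values were seen, varied more among the WT cultures than between the genotypes. Isg15, a ubiquitin-like modifier, was at 3.58, 2.36 and 8.49 CPM in WT and at 5.91, 3.52 and 4.39 CPM in Nipbl+/- cultures. Bst2, which tethers budding virions to the cell surface, was at 6.81, 6.05 and 15.1 CPM in WT and at 10.6, 8.06 and 9.45 CPM in Nipbl+/- cultures. Oas1a, an oligoadenylate synthetase that activates RNase L, was at 0.771, 0.801 and 2.27 CPM in WT and at 1.58, 0.803 and 1.10 CPM in Nipbl+/- cultures. In each case WT replicate 3 was the highest of all cultures, WT replicates 1 and 2 were below or close to the lowest Nipbl+/- culture, and Nipbl+/- replicate 1 was the second highest.

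WT replicate 3 was again the highest and WT replicate 2 the lowest culture for Ifi44, at 5.63, 4.72 and 13.3 CPM in WT and 9.38, 6.50 and 5.20 CPM in Nipbl+/- cultures. Parp14, an interferon-induced ADP-ribosyltransferase, was at 6.22, 4.94 and 10.3 CPM in WT and at 8.75, 7.38 and 7.31 CPM in Nipbl+/- cultures. The log2 fold changes over all cultures were -0.06 (SE 0.43) for Isg15, 0.01 (SE 0.32) for Bst2, -0.15 (SE 0.47) for Oas1a, -0.16 (SE 0.39) for Ifi44 and 0.13 (SE 0.25) for Parp14. With standard errors of this size only large differences between the genotypes could have been detected for these genes. Other canonical effectors did not peak in WT replicate 3. Rsad2 was at 0.544, 0.445 and 1.02 CPM in WT and at 0.451, 0.497 and 1.10 CPM in Nipbl+/- cultures. Oas3 was at 1.63, 2.05 and 1.58 CPM in WT and at 2.07, 1.03 and 1.67 CPM in Nipbl+/- cultures.

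**Figure D3:**
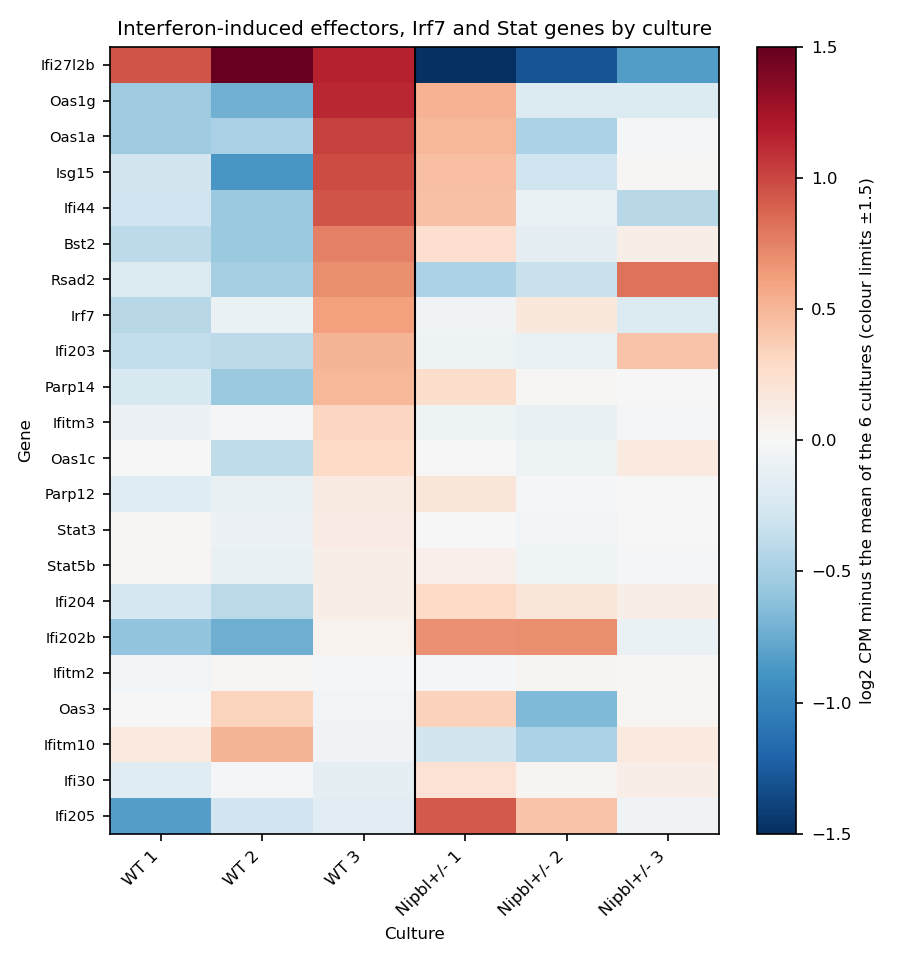
Level of each tested effector, Irf7 and Stat gene (rows) in each culture (columns) as log2 CPM minus the mean of the 6 cultures, red above and blue below the mean, with a line between the genotypes. WT 3 is red for Oas1g, Oas1a, Isg15, Ifi44 and Bst2, where WT 1 and WT 2 are blue, and Ifi27l2b is red in WT and blue in Nipbl+/- cultures.

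Counting, for each gene, which culture held its highest CPM described this pattern over all members. WT replicate 3 was that culture for 22 of 59 members (37.3%) and for 9 of 19 effectors (47.4%), against 19.2% of all tested genes. It held the highest value for 8 of 21 Trim genes and for 2 of 10 MHC class I genes. Among tested members with an ISRE core in their window, WT replicate 3 was highest for 13 of 21 (61.9%), and among those with a window and no match for 5 of 23 (21.7%). The 13 are Isg15, Bst2, Oas1a, Oas1c, Oas1g, Ifitm3, Ifi203, H2-T22, Trim5, Trim12a, Trim12c, Trim21 and Trim30d. These counts are descriptions, with WT replicate 3 picked out after its values were seen. Isg15, Bst2 and Oas1a, from which it was picked, are among the 13, so the contrast partly restates that choice.

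**Figure D4:**
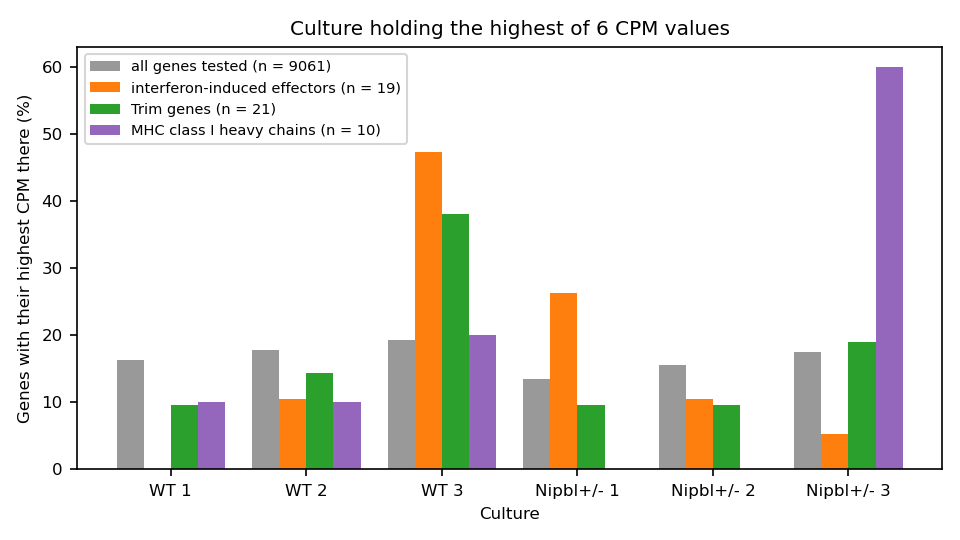
Share of genes (y axis, percent) whose highest CPM was in each culture (x axis), for all tested genes and for 3 groups of members. Effectors peak at WT 3 (47.4%) and MHC class I genes at Nipbl+/- 3 (60%), where all tested genes stand at 19.2% and 17.5%. Both cultures were picked out after the values were seen.

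WT replicate 3 was picked out for its high values in many effectors. Leaving it out therefore had to raise the fold changes of genes highest there. Without it the fold change was above 0 for 15 of 19 effectors, against 11 of 19 with all cultures. Its median over the effectors was 0.44 against 0.01. Over all members 42 of 60 tested (70%) were above 0, against 48.8% of all genes tested in the same fit. The log2 fold change of Isg15 became 0.63, of Bst2 0.54, of Oas1a 0.55 and of Ifi44 0.44. Even so edgeR called 0 members higher in this fit, where it called 0.281% of all genes, with 12 members higher at an unadjusted p under 0.05 (20%, against 8.58% of all genes). Ifi27l2b remained lower at the adjusted threshold. Leaving out WT replicate 2 instead put 6 of 19 effectors above 0 and leaving out Nipbl+/- replicate 2 put 15 of 19 above 0. Without WT replicate 1, Nipbl+/- replicate 1 or Nipbl+/- replicate 3 it was 8, 10 and 9 of 19. The count thus depended on the cultures used.

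**Figure D5:**
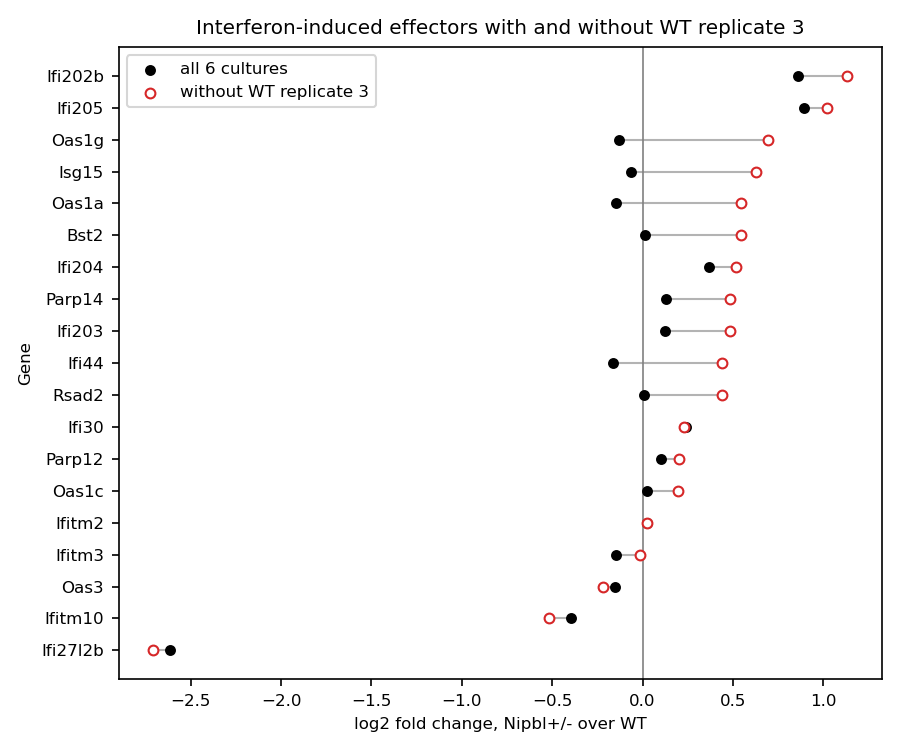
Log2 fold change of Nipbl+/- over WT (x axis) of the 19 tested effectors with all 6 cultures (filled) and without WT replicate 3 (open). Oas1g, Isg15, Oas1a and Ifi44 move from below 0 to above 0, while Ifi27l2b lies at -2.61 and -2.71.

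WT replicate 3 was also the WT culture in which Xist exceeded Ddx3y, so that this culture and its sex cannot be told apart. Within the cultures high in Xist, 1 WT against 2 Nipbl+/-, 5 of 19 effectors (26.3%) had a higher mean CPM in Nipbl+/-, against 50.8% of all tested genes. Within the cultures high in Ddx3y, 2 WT against 1 Nipbl+/-, 16 of 19 did (84.2%), against 48.7% of all tested genes. Isg15 was lower in Nipbl+/- in the former (log2 ratio of mean CPM -0.85) and higher in the latter (0.56), and Bst2 likewise (-0.69 and 0.56). Ifi27l2b was lower in both (-2.68 and -2.29), and H2-M9 (2.54 and 2.01), Ifi202b (0.64 and 0.56), Ifi205 (0.87 and 0.49), Ifi204 (0.16 and 0.42) and Ifi30 (0.28 and 0.20) were higher in both. The groups of Ifi27l2b, H2-M9, Ifi205, Ifi204 and Ifi30 did not overlap, so any split of the cultures had to keep their direction. Of the genes with the same direction in both classes, only Ifi202b could have differed. With 1 culture on a side these values have no test. WT replicate 3, picked out for its high values in many effectors, is the 1 WT culture high in Xist. The effector shares of the 2 classes therefore largely restate its values, and an effect of sex was not tested.

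The interferon-induced GTPases, which attack the vacuoles of intracellular pathogens, were mostly near the limit of detection. Irgm1, a regulator of this family and of autophagy, was the exception at 17.7 RPKM, with 94.8, 117 and 96.6 CPM in WT and 122, 107 and 99.9 CPM in Nipbl+/- cultures (log2 fold change 0.09, SE 0.10). Gbp9 stood at 0.402 RPKM and Gbp6 at 0.158 RPKM. Gbp9 was at 0.953, 1.02 and 1.53 CPM in WT and at 1.35, 1.07 and 3.20 CPM in Nipbl+/- cultures, where replicate 3 alone stood out (log2 fold change 0.66, SE 0.44, edgeR adjusted p = 0.493). Gbp6 had a log2 fold change of 0.63 (SE 0.43, edgeR adjusted p = 0.512). The other 4 members of this group were too low to test, and Gbp4 and Gbp8 overlap Gbp9.

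The MHC class I heavy chain genes present peptides on the cell surface, and 10 of the 12 on this strand could be tested. H2-T23, a non-classical chain that engages receptors of NK cells, was the most abundant per length at 26.1 RPKM. It was at 83.9, 89.4 and 74.7 CPM in WT and at 75.6, 73.4 and 71.4 CPM in Nipbl+/- cultures (log2 fold change -0.17, SE 0.07, edgeR adjusted p = 0.262), and the groups overlapped through WT replicate 3. H2-K1, a classical chain that presents to CD8 T cells, followed at 15.5 RPKM. It was at 38.2, 37.0 and 41.3 CPM in WT and at 44.9, 42.3 and 47.6 CPM in Nipbl+/- cultures. Each Nipbl+/- culture was above each WT culture, by a log2 fold change of 0.21 (SE 0.07, edgeR adjusted p = 0.166).

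H2-M9, a non-classical gene of the M region at chr17:36639285-36642666 (mm10), had 4, 5 and 2 counts in WT and 13, 13 and 17 counts in Nipbl+/- cultures. Each Nipbl+/- culture was above each WT culture, but the level was low in both groups, 0.166 ± 0.066 CPM in WT and 0.632 ± 0.162 CPM in Nipbl+/- (SD, n = 3 each). The ratio of the pooled counts, 43 to 11 scaled for library size, was 3.73 with an exact 95% interval of 1.89 to 8.01 for counting error only. The log2 fold change was 1.88 (SE 0.43), with an adjusted p of 0.0681 by edgeR's quasi-likelihood test, 0.00827 by its exact test and from 0.00827 to 0.217 over the 12 alternatives that gave one.

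The remaining class I genes had log2 fold changes between -0.30 and 0.12. H2-T22 (log2 fold change -0.03), H2-T10 (-0.07), H2-T24 (0.04), H2-K2 (0.07), H2-Bl (0.08), H2-M5 (0.12) and H2-T3 (-0.30) all had overlapping groups. The highest culture was Nipbl+/- replicate 3 for 6 of the 10 class I genes (60%, against 17.5% of all tested genes). This culture was picked out after the values were seen, and the count is a description. Class I genes are near copies of each other and differ between mouse stocks, so that reads may be shared among them. Tapbpl, which edits the peptides bound to class I, was at 75.1, 96.6 and 64.0 CPM in WT and at 68.3, 64.6 and 62.2 CPM in Nipbl+/- cultures (log2 fold change -0.27, SE 0.13, edgeR adjusted p = 0.333). H2-Ke2, which encodes a prefoldin subunit, and H2-Ke6, a steroid dehydrogenase gene, are named for their place in the MHC region. They had log2 fold changes of 0.00 and -0.00. H2-Ke6 (119 to 170 counts) overlaps the same-strand gene Gm20427 (7031 to 8742 counts), and how reads were divided between these 2 genes is not known.

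Of the 32 Trim genes, 21 were tested, 9 with a fold change above 0 (42.9%, against 48.4% of all tested genes) and 12 below, and edgeR called 0 in either direction. At an unadjusted p under 0.05, 1 was higher (4.76%, against 8.98%) and 3 were lower (14.3%, against 7.95%). Trim44, a member that lacks the catalytic RING domain, was the most abundant at 27.3 RPKM, with 151, 157 and 151 CPM in WT and 161, 171 and 164 CPM in Nipbl+/- cultures (log2 fold change 0.11, SE 0.05). Trim41 followed at 13.1 RPKM (log2 fold change -0.08) and Trim3, a ligase of neurons, at 12.1 RPKM. Trim3 was at 60.0, 58.6 and 60.3 CPM in WT and at 55.7, 55.0 and 54.0 CPM in Nipbl+/- cultures, tight groups that did not overlap but differed by only -0.12 on the log2 scale (SE 0.05, edgeR adjusted p = 0.237). Trim47 was at 27.2, 27.6 and 27.0 CPM in WT and at 35.3, 31.1 and 33.4 CPM in Nipbl+/- cultures. It had the smallest adjusted p of the family (log2 fold change 0.28, SE 0.07, edgeR adjusted p = 0.0775), and its groups did not overlap.

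Over all roles, 8 members had all Nipbl+/- values above all WT values (13.6%, against 12.0% of all tested genes), namely H2-K1, H2-M9, Ifi204, Ifi205, Ifi30, Trim44, Trim47 and Trim59. The reverse held for 5 members (8.47%, against 10.8%), Ifi27l2b, Trim3, Trim12a, Trim39 and Trim46. Both shares lie near those of all genes, so the lack of overlap is no mark of these genes as a group.

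Of 42 genes of the same pathway with other names on the minus strand, 38 were tested. The quasi-likelihood test, the exact test and DESeq2 each called 0 of them (smallest adjusted p = 0.153 by edgeR's quasi-likelihood test). At an unadjusted p under 0.05, 4 were higher (10.5%, against 8.98% of all tested genes) and 1 was lower (2.63%, against 7.95%). Their fold change was above 0 for 25 (65.8%, against 48.4% of all tested genes and 50.8% of the tested members), with a median of 0.09. Eif2ak2, the gene of the RNA-activated kinase PKR and an interferon target, was at 111, 111 and 135 CPM in WT and at 121, 122 and 113 CPM in Nipbl+/- cultures. Its log2 fold change was -0.00 (SE 0.08), with WT replicate 3 again the highest culture. That culture was also highest for Ddx58, Ifih1 and Dhx58, which encode the cytosolic sensors of viral RNA, and for 14 of the 38 genes in all (36.8%, against 19.2% of all tested genes). The interferon genes Ifnb1 and Ifnl2 were at 0 in every culture.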

How the data were processed

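Counts and RPKM were deposited by the authors for 38483 genes in each of 6 cultures. Per the labels and the study's methods, ribo-depleted RNA was prepared with a TruSeq kit and reads were aligned with TopHat2 2.0.10 to mm10 with Ensembl annotation 72. The counting tool is not given in the sources used here. RPKM, scaled by the authors for gene length and library size, served only to compare levels between genes.

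Minus-strand counts were filtered with filterByExpr (minimum count 10), TMM-normalized and tested with edgeR 4.0.16 (glmQLFit, glmQLFTest; R 4.3.3) without covariates. The alternatives were edgeR's exact test, DESeq2 1.42.0, its size factors in edgeR, library size alone, no filter and a filter of CPM above 1 in 3 cultures, a block for the replicate number, the log2 ratio of Ddx3y to Xist as a covariate, and each culture left out. Steps were tested on simulated data.

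Members and lists were chosen with earlier results of these data known. Genes named by rule are Nipbl, members past the threshold, members without overlap that differed by 0.5 or more on the log2 scale, the 3 with the highest RPKM per role, every tested Stat, Irf, class I and peptide loading gene, and Eif2ak2. The canonical effectors, Ifi202b, Ifi204, the cultures named as most often highest and the values within Xist and Ddx3y classes were picked after values were seen.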

Additional observations from a re-analysis of the deposited data

How the results depend on the processing

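No member was called higher in Nipbl+/- except with edgeR's exact test (2) and with the Ddx3y to Xist covariate (1, Ifi202b). The 1 lower call, Ifi27l2b, was made under every alternative except when a culture was left out (0 to 1 calls). Nipbl stayed between -0.47 and -0.39 on the log2 scale when a culture was left out and passed in 3 of 6 such fits, failing without WT replicate 1 (adjusted p = 0.0755 by edgeR), Nipbl+/- replicate 1 (0.0864) or Nipbl+/- replicate 2 (0.0772). The log2 fold changes near 0 turned direction. Isg15 was 0.080 with the replicate block, 0.63 without WT replicate 3 and 0.10 without Nipbl+/- replicate 2 (range -0.39 to 0.63). Bst2 was -0.12 with the covariate, -0.17 and -0.22 without WT replicates 1 and 2 and -0.09 without Nipbl+/- replicate 1 (range -0.22 to 0.54). Ifi44 was 0.44 without WT replicate 3 and 0.01 without Nipbl+/- replicate 3 (range -0.43 to 0.44), Oas1a was 0.55 without WT replicate 3 and 0.07 without Nipbl+/- replicate 2 (range -0.44 to 0.55), and Irf7 was 0.23 without WT replicate 3 (range -0.32 to 0.23). The cause was not tested. Same-numbered cultures did not deviate together (correlations -0.062, -0.036 and -0.142). Whether the numbers pair the cultures is not known, and these correlations cannot exclude it. The replicate block gave 0 higher and 1 lower call and kept the sign of 54 of 59 members. Scaling by library size alone moved the median of all genes to 0.03 and put 34 of 59 members, and 58.2% of all genes, above 0. DESeq2 gave no adjusted p for H2-M9. The spread between cultures, and for the low genes their few counts, limit what could be detected.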
